A study of Mus musculus with 9 samples.

Results

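Beta-actin (Actb) and the muscle chaperone Hspb7 are described here in the mouse aorta, each through 1 probe of a one-colour array that was printed as 10 spots. They are 2 of the 49 genes with a named probe, here a probe printed as 10 spots whose transcript was matched to a gene. Only the 50 probes printed as 10 spots were matched, on an array with 60823 different probes outside the control features. Genes said below to lack a named probe may have other probes on the array. Actb was read from the probe A_51_P173760, which the files pair with the transcript NM_007393, and Hspb7 from the probe A_51_P346445, paired with NM_013868. The pair was chosen by intensities seen in earlier results of these arrays, in which Actb was lower than vehicle in both obese groups and Hspb7 was lower in treated than in untreated obese mice. The values of those 3 contrasts are therefore a description, with no test.

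All mice were C57BL/6J males, and each of the 9 arrays holds RNA of the aorta of 1 mouse. The vehicle group (n = 3) has no diet named in its treatment label, the DIO group (diet-induced obesity, n = 3) ate a high-fat diet for 4 months without the drug, and the DIO+sitagliptin group (n = 3) was fed a high-fat diet and received sitagliptin by mouth at 3 mg/kg per day, with no length of treatment or age given. Sitagliptin inhibits DPP-4, a peptidase that inactivates incretin hormones. By its title, the series asks how the drug bears on coding and long noncoding transcripts of the obese aorta.

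Beta-actin is a cytoplasmic actin of nearly every cell type. Its monomers polymerise into filaments that carry cell shape, adhesion and migration, and its transcript is widely used as a reference for other genes. In the aortic wall, smooth muscle cells also hold a muscle actin, Acta2, while endothelial cells, fibroblasts and leukocytes rely on the cytoplasmic forms. Hspb7 belongs to the small heat shock proteins, chaperones that hold unfolding proteins in a soluble state, and it is known mainly from heart and skeletal muscle, where it associates with the actin cytoskeleton and with filamin C.

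The probe letters are not used here, so the coding sequences of GENCODE M21 are shown to place the 2 genes within their families. The opening of the Actb coding sequence is set beside its cytoplasmic paralogue Actg1 and the smooth muscle actin Acta2, since near-identical transcripts can share a probe. Capitals mark bases that differ from Actb or are inserted relative to it in the alignment.
Actb: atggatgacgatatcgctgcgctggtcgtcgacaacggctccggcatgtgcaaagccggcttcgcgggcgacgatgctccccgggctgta
Actg1: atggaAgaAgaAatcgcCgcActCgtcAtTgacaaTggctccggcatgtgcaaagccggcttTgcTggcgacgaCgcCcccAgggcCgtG
Acta2: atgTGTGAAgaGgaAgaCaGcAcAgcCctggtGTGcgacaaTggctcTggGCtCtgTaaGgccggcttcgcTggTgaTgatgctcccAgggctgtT
In these 90 bases Actg1 differs from Actb at 16 positions, and over the whole coding sequence of 1128 bases it is 88.7% identical. The 4 muscle actins were 82.7% to 84.8% identical to Actb, so any share of their transcripts in the Actb signal cannot be read from the files.

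The opening of the Hspb7 coding sequence is shown because it holds a long run of serine codons, a feature of this gene that the probe values do not use. Capitals mark serine codons.
Hspb7: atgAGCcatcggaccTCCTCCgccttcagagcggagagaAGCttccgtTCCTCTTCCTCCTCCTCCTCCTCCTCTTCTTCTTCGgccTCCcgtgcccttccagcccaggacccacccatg
Of these 40 codons 17 are serine codons, with an unbroken run of 12 from codon 17 to codon 28. The first 40 codons of 7 other small heat shock genes held 0 (Hspb3) to 5 (Hspb8) serine codons, and the longest run anywhere in their coding sequences was 3 (Hspb1). The coding sequence has 510 bases, and its identity to the same 7 genes ran from 41.0% (Hspb3) to 47.7% (Hspb6), far from the identity among the actins.

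Per array, 61.7% to 82.9% of spots were marked as well above background, and the median spot ran from 12.8 to 37.6 intensity units. The headers hold 3 scan records. Vehicle 3 and DIO+sitagliptin 3 were scanned together on day 20 of November, DIO+sitagliptin 1 alone on day 12 at hour 18, and the other 6 arrays together on day 12 at hour 16. Both arrays of day 20 were the least like the rest: their median correlation with the other 8 arrays, over the probes kept, was 0.860 and 0.825, against 0.934 to 0.954 for the arrays of day 12. The differences of Actb and Hspb7 between groups in the fit of all 9 arrays are therefore also given without them. No DIO array was scanned on day 20. The number of arrays limits the precision, and no marker of smooth muscle or endothelium (0 of 8 for each cell type) had a named probe, so the labelled tissue was not checked by markers here.

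Actb was bright in the vehicle aortas with 1 exception. Its 10 spots averaged 1903 units on vehicle 1, 221.7 units on vehicle 2 and 4287 units on vehicle 3. Vehicle 2 thus lay 19.3-fold below vehicle 3. The DIO aortas read 1264, 130.9 and 73.9 units for DIO 1, DIO 2 and DIO 3, a range of 17.1-fold. DIO 1 lay above vehicle 2, so the groups overlapped. With sitagliptin, Actb read 497.5, 99.2 and 190.6 units on DIO+sitagliptin 1, 2 and 3, a range of 5.02-fold. The highest treated aorta exceeded vehicle 2 and both lower DIO aortas. Over the 9 mice the range was 58.0-fold.

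Spread between spots was small beside this. The coefficient of variation over the 10 spots ran from 3.26% on vehicle 3 to 7.72% on DIO+sitagliptin 2, and all 10 spots of each array were marked well above background. Probes named NEGATIVE by the array design gave a background level. Actb exceeded the highest of them on each of the 9 arrays, from 2.33-fold on DIO 3 to 104-fold on vehicle 3. Within an array Actb was brighter than 78.2% of the 60823 probes on DIO 3 and 97.5% on vehicle 3, so its rank among transcripts moved along with its intensity.

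Hspb7 was dimmer and more even. The vehicle aortas read 74.6, 63.4 and 103.9 units in replicates 1, 2 and 3. In the DIO aortas the readings were 230.3, 65.2 and 54.5 units, of which DIO 1 was the highest of all 9 mice, DIO 2 lay within the vehicle range and DIO 3 below it. The treated aortas read 94.4, 53.9 and 35.8 units, and DIO+sitagliptin 3 was the lowest of all 9. The range over all mice was 6.44-fold.

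The 10 spots of Hspb7 varied by 3.35% (DIO 1) to 12.2% (vehicle 2). All were marked well above background, yet Hspb7 stood closer to the NEGATIVE probes than Actb did. It exceeded the highest of them by 1.19-fold on DIO+sitagliptin 3, 1.45-fold on DIO+sitagliptin 2 and 6.51-fold on DIO 1, with a median of 1.94-fold. The lower side of any Hspb7 difference therefore lies near background.

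**Figure D1:**
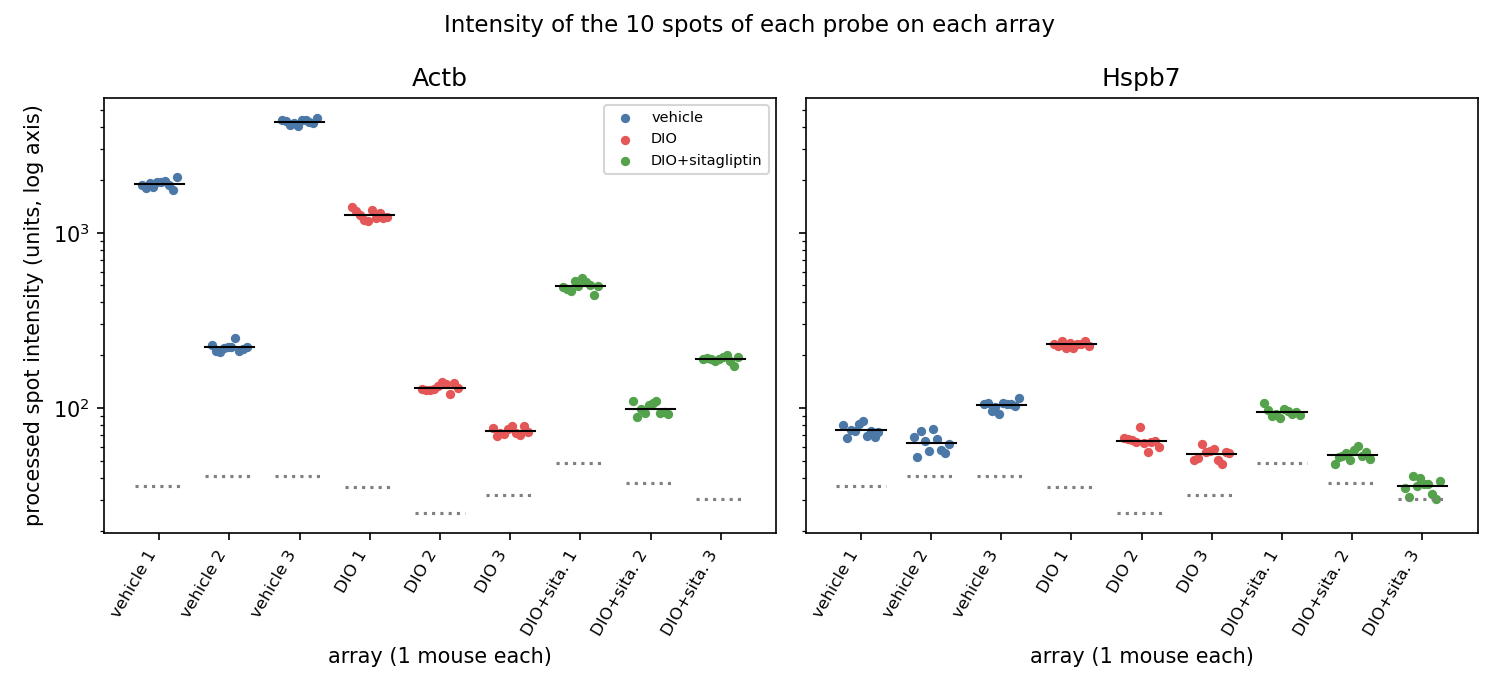
Processed intensity (log axis) of the 10 spots of the Actb probe (left) and the Hspb7 probe (right) on each of the 9 arrays, 1 mouse each. Black bars are means over spots and dotted grey bars the highest NEGATIVE probe of the array. Actb runs from 73.9 to 4287 units, with the spots of each array close together, while Hspb7 runs from 35.8 to 230.3 units and nears the dotted bar on DIO+sitagliptin 3.

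After quantile normalization over the 9 arrays, Actb averaged 10.21 ± 2.42 (SD, n = 3) in vehicle, 7.92 ± 1.87 in DIO and 7.84 ± 1.52 in DIO+sitagliptin, as log2(intensity + 1). This scale shrinks the fold changes of weak probes. The step from vehicle to DIO is smaller than the vehicle SD and larger than the DIO SD, and their ranges overlap. The step from DIO to DIO+sitagliptin is far smaller than either SD. The within-group SD of Actb, 1.97, was wider than that of 99.0% of the 49360 probes kept, whose median was 0.63. That of Hspb7, 0.66, was wider than that of 52.4% of them.

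Between DIO and vehicle, Actb differed by -2.29 ± 1.30 on the log2 scale (SE, n = 3 per group), a 4.89-fold lower mean. The difference of DIO+sitagliptin from vehicle was -2.37 ± 1.30. Arrays of the same replicate number in these groups deviated together over all probes, but number 3 of both was scanned on day 20. Whether the numbers mark matched mice cannot be told apart from the scan. Within numbers 1, 2 and 3 the treated aorta differed from the vehicle aorta by -1.66, -0.86 and -4.58. A fit of these 6 arrays with the number as a block left the difference at -2.37 with a limma SE of 0.63. That SE is drawn towards the spread of the other probes, so it understates how far these 3 differences lie apart. Both comparisons use the same 3 vehicle arrays. Among the arrays of day 12, the difference was -1.41 for 3 DIO against 2 vehicle aortas and -1.26 for 2 treated against 2 vehicle aortas. Leaving out vehicle 3 alone gave -1.41 and -1.48, and leaving out vehicle 2 gave -3.67 and -3.74. Within the scan record that holds 6 arrays (2 vehicle, 3 DIO and 1 treated), the differences were -1.41 and -2.73. The sign was thus the same in each of these subsets, which reuse the arrays on which Actb was picked, so this is no support. In bulk RNA, fewer cells of a type and less RNA per cell cannot be told apart.

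Treated against untreated DIO aortas is the difference of the 2 contrasts on which Actb was picked, so it too is a description, with no test. They differed in Actb by -0.08 ± 1.30 (SE, n = 3 per group). The SE is far larger than the difference, so the value does not show that Actb stayed the same. Without the arrays of day 20 the difference was 0.15, and without DIO 1 it was 0.98. No direction can be given for the drug.

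Hspb7 averaged 6.29 ± 0.59 (SD, n = 3) in vehicle, 6.55 ± 0.79 in DIO and 5.92 ± 0.56 in DIO+sitagliptin, on the same scale. The order was DIO, vehicle, DIO+sitagliptin, and each step was smaller than the SD of the groups on either side. The contrast in view when the gene was picked, DIO+sitagliptin minus DIO, was -0.62 ± 0.52 (SE, n = 3 per group). It was -0.18 without DIO 1, -0.95 without DIO+sitagliptin 1 and -0.45 among the arrays of day 12 (2 treated against 3 DIO). The size of this difference thus depends on single arrays, among them DIO 1, the mouse with the highest Hspb7, and DIO+sitagliptin 1.

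The other contrasts of Hspb7 share their DIO or treated arrays with the one on which it was picked, which is their difference. Their intervals and p-values are therefore not free of that choice and are read as a description. For the diet, Hspb7 differed by 0.26 ± 0.52 between DIO and vehicle (95% interval -0.90 to 1.41; limma adjusted p = 0.929). Without DIO 1 this became -0.19, without vehicle 2 -0.048, and among the arrays of day 12 it was 0.53. DIO+sitagliptin differed from vehicle by -0.37 ± 0.52 (95% interval -1.52 to 0.79; limma adjusted p = 1.00), and by 0.086 among the arrays of day 12. These values come from the fit without a block. Within the same-numbered arrays the difference was 0.23, -0.056 and -1.28. A fit of these 2 groups alone with the number as a block gave -0.37 with a limma SE of 0.37 (limma adjusted p = 0.796). Both of these Hspb7 differences changed sign with the arrays used.

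**Figure D2:**
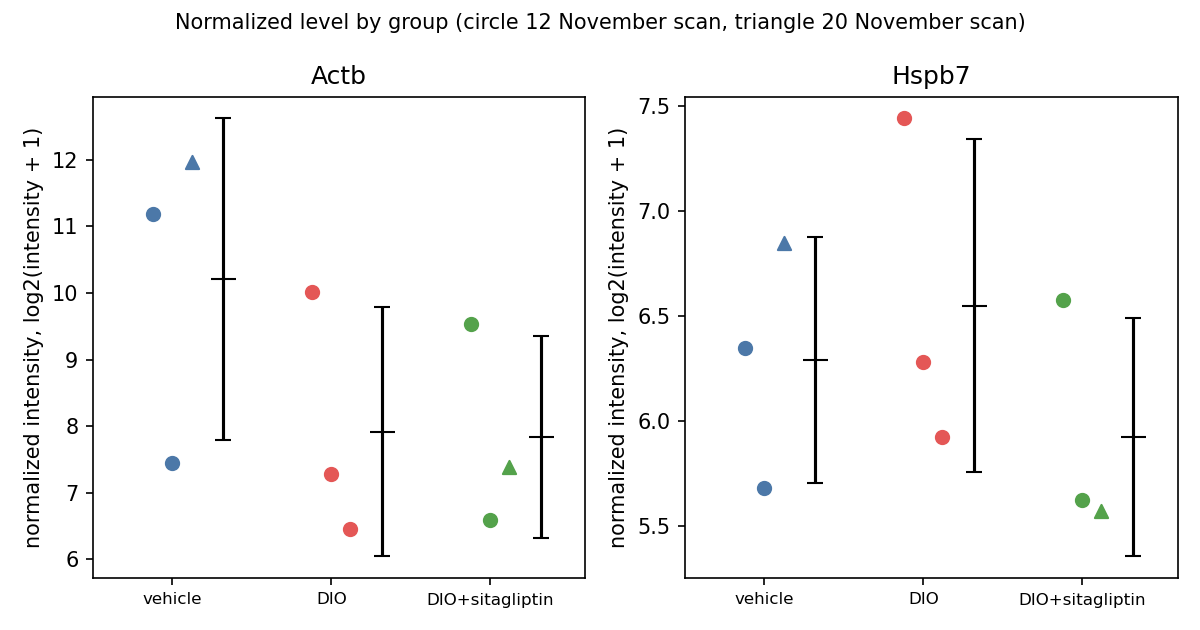
Quantile-normalized log2(intensity + 1) of Actb (left) and Hspb7 (right) by group, 1 point per mouse, with the mean and SD of 3 mice as a bar. Circles are arrays scanned on day 12 and triangles those of day 20. The groups overlap for both genes, and the vehicle mean of Actb, 10.21, stands over a range from 7.45 to 11.97.

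Neither gene had groups that did not overlap in any of the 3 comparisons. Among all probes kept, groups did not overlap for 7.41% between DIO and vehicle, 3.32% between DIO+sitagliptin and DIO, and 4.04% between DIO+sitagliptin and vehicle. No probe passed limma at an adjusted p under 0.05 in any of the 3, so the share called was 0% in each, and neither gene was among them. At an unadjusted limma p under 0.05 there were 354 (0.717%), 114 (0.231%) and 713 (1.44%) probes in the same order. With the replicate number as a block in the 6 arrays of the last comparison there were 3783 of 49360, from a different fit. The share of probes with a difference below 0 was 46.3%, 54.9% and 49.6%. Actb lay below 0 in 3 of the 3 comparisons and Hspb7 in both that involve the drug. Nothing is read from these signs, since the choice of the genes used 3 of the 6 differences and the comparisons share their groups.

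Within each group the same mouse had the highest reading of both genes: vehicle 3, DIO 1 and DIO+sitagliptin 1. The lowest was also shared in vehicle (vehicle 2) and DIO (DIO 3), but not in the treated group, where Actb was lowest on DIO+sitagliptin 2 and Hspb7 on DIO+sitagliptin 3. Across the 9 arrays, log2 intensities of Actb and Hspb7 before normalization correlated with Pearson's r = 0.65 (two-sided exact permutation p = 0.0514) and Spearman's rho = 0.77 (p = 0.0214). With Benjamini-Hochberg adjustment over the 9 relations computed, these became 0.231 and 0.0963, so the relation did not pass. With group means removed and values permuted within groups, r was 0.81 (exact permutation p = 0.0139, adjusted p = 0.125), which did not pass either. Without vehicle 3 and vehicle 1, the 2 arrays farthest from the median Actb, r was 0.84, and among the 7 arrays of day 12 it was 0.69. The 2 genes of a point are read on the same array and so share its brightness. After quantile normalization over the 9 arrays r was 0.73. The part of brightness in the relation was not tested.

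The ratio of both intensities cancels that brightness where it multiplies both genes alike. Probes differ in how well they bind, so only its change between arrays can be read. The vehicle mice had Hspb7 over Actb ratios of 0.0392, 0.286 and 0.0242 for replicates 1 to 3, against 0.182, 0.498 and 0.738 for the DIO mice and 0.190, 0.543 and 0.188 for the treated mice. The ratio was lowest on vehicle 3 and vehicle 1 and highest on DIO 3, a span of 30.4-fold, while vehicle 2 lay among the obese aortas. Actb ranged 58.0-fold over the mice and Hspb7 6.44-fold, so the ratio mostly restates Actb. It is no support for the contrasts on which Actb was picked, and Hspb7 lay near background on several arrays.

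The array carries its own control features for mouse GAPDH, a glycolytic enzyme whose transcript is another common reference. Those named GAPDH_5 averaged 302.9, 152.5 and 509.2 units in vehicle, 331.8, 119.5 and 87.8 units in DIO, and 120.9, 96.3 and 216.4 units in the treated group, over 10 spots each. Their highest and lowest arrays, vehicle 3 and DIO 3, were also those of Actb. The features named GAPDH_3 ran from 52.8 units on DIO+sitagliptin 1 to 161.4 units on DIO 2, with no such order.

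Actb and GAPDH_5 correlated across the 9 arrays with r = 0.91 (two-sided exact permutation p = 0.00114, adjusted p = 0.0103) and rho = 0.92 (p = 0.00131, adjusted p = 0.0118). This test treats the 9 arrays as exchangeable across groups. With the group means removed and values permuted only within groups, r was 0.87 (exact permutation p = 0.0324, adjusted p = 0.146 over the 9 relations), which did not pass. Without vehicle 3 and DIO 1, the arrays farthest from the median GAPDH_5, r over the arrays left was 0.79, and among the arrays of day 12 it was 0.92. With GAPDH_3 the correlation of Actb was r = -0.23 (exact permutation p = 0.546, adjusted p = 0.878) and rho = -0.28 (p = 0.463, adjusted p = 0.833). Hspb7 and GAPDH_5 had r = 0.51 (exact permutation p = 0.163, adjusted p = 0.366) and rho = 0.62 (p = 0.0857, adjusted p = 0.257). Its r was -0.061 without the same 2 arrays and 0.72 among the 7 arrays of day 12, which include DIO 1, so the value depends on which arrays enter. The PGK1 control features had no relation with either gene that passed.

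The Actb difference between DIO and vehicle came out smaller with GAPDH_5 in the calculation, but not relative to GAPDH_3. With the log2 ratio of GAPDH_3 to GAPDH_5 as a term in the fit, Actb differed by -0.91 ± 0.88 between DIO and vehicle and by -0.73 ± 0.83 between DIO+sitagliptin and DIO. Relative to GAPDH_5 within each array, the DIO difference was -1.48, and relative to GAPDH_3 it was -2.46. Hspb7 in DIO against vehicle was 1.16 relative to GAPDH_5 and 0.18 relative to GAPDH_3, and 0.66 ± 0.45 with the ratio as a term. The log2 ratio itself was -0.02, 0.43, 0.15 and 0.50 on vehicle 2, DIO 2, DIO 3 and DIO+sitagliptin 2, all low in Actb. On the other arrays it ran from -2.48 on vehicle 3 to -1.20 on DIO+sitagliptin 1. These include DIO+sitagliptin 3 (-1.75), where Actb was also low. Which part of either gene's spread goes with the GAPDH features was not tested beyond these values, and neither was RNA quality.

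**Figure D3:**
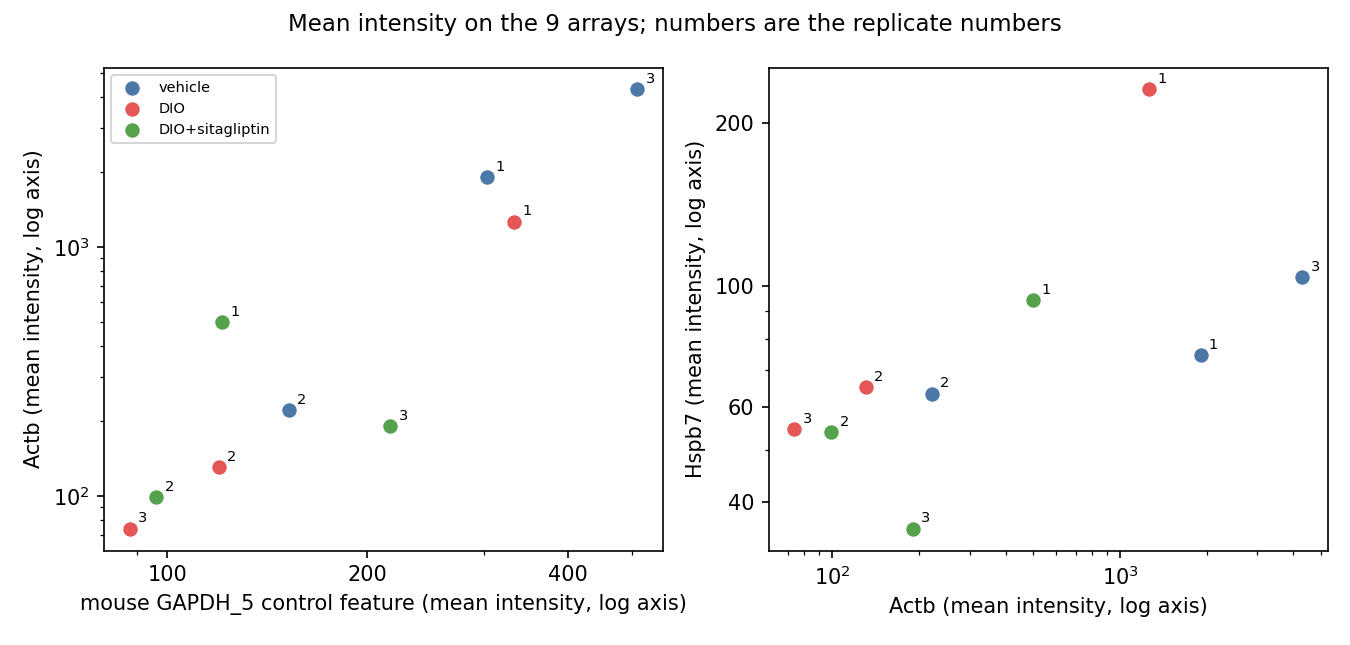
Mean intensity on the 9 arrays (log axes), coloured by group and numbered by replicate. Actb rises with the mouse GAPDH_5 control feature (left; r = 0.91), while Hspb7 against Actb (right; r = 0.65) has DIO 1 far above the other arrays.

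The genes whose normalized log2 pattern over the 9 arrays was most like that of Actb, out of 39 other named genes kept, were Apoe (r = 0.92), the class Ib histocompatibility gene H2-Q7 (0.91), Acaa2 of mitochondrial beta-oxidation (0.79), Hspb7 (0.73) and Taf1a, a subunit of the RNA polymerase I selectivity factor (0.70). Apoe, the apolipoprotein of remnant clearance that macrophages also make, was above the highest NEGATIVE probe on 9 of 9 arrays. H2-Q7 was so on 6, Acaa2 on 8 and Taf1a on 1. The least alike were Gamt, an enzyme of creatine synthesis (-0.72), and Chgb, a secretory granule protein (-0.69). Gamt was above the highest NEGATIVE probe on 9 of 9 arrays, but Chgb on only 3, so its pattern lies near background.

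Hspb7 was most like Apoe (0.76), Acaa2 (0.76), Actb (0.73) and Nup50, a nuclear pore protein (0.66), and least like Gamt (-0.58) and Chgb (-0.55). Of these genes, Nup50 was below the brightest NEGATIVE probe in each of the 9 mice. Over all other probes kept, 1.42% had r of at least 0.9 with Actb and 0.0567% with Hspb7. These likenesses describe 9 arrays that share brightness, scan and normalization, and carry no test.

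Of the actin cytoskeleton list (54 genes: actins, Arp2/3 subunits, cofilins, profilins and tropomyosins among others) only Actb had a named probe, and of the 27 small heat shock and chaperone genes only Hspb7 did. Of 37 muscle genes Gamt alone was measured by a named probe. It differed by 0.31 ± 0.46 between DIO and vehicle, by -0.27 ± 0.46 between DIO+sitagliptin and DIO and by 0.047 ± 0.46 between DIO+sitagliptin and vehicle (limma adjusted p = 0.925, 1.00 and 1.00). None of the 11 markers of skeletal and heart muscle had a named probe, so whether muscle or fat around the vessel was included in a sample was not examined. Of the markers of other cell types, Apoe for leukocytes and Chgb for nerve were the only ones with a named probe. Apoe moved with Actb across arrays, as given above, and its part in the result was not tested.

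**Figure D4:**
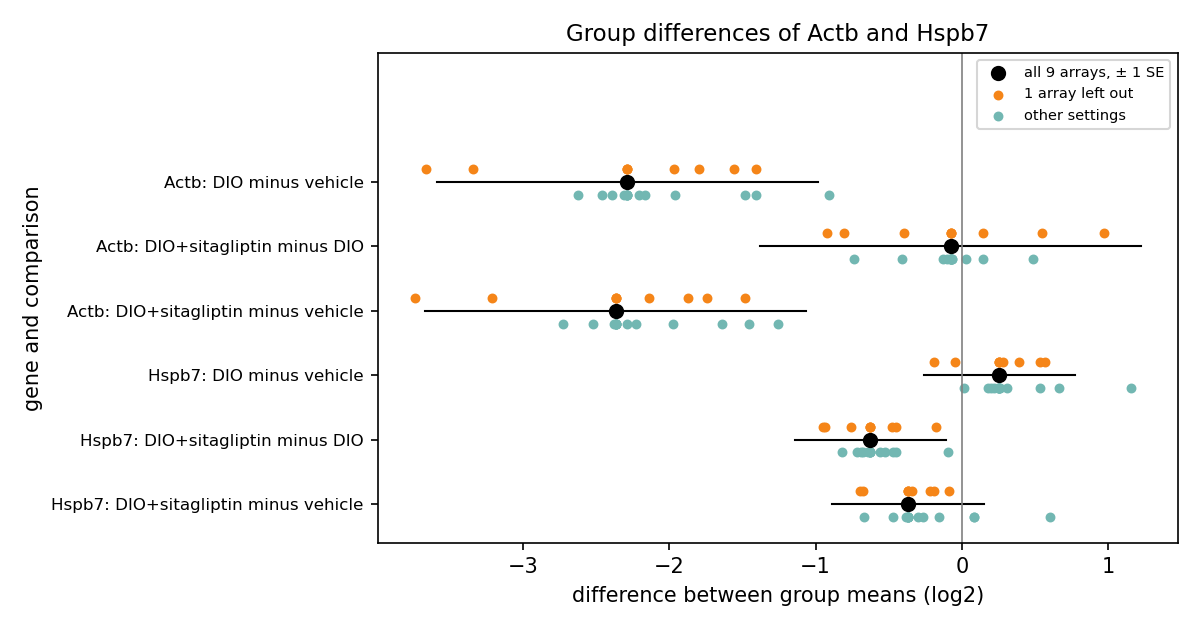
Differences between group means of Actb and Hspb7 (log2 scale) in the 3 comparisons. Black points with bars are the fit of all 9 arrays ± 1 SE, orange points leave out 1 array each, and blue-green points are other processing settings. The points for Actb with both obese groups against vehicle and for Hspb7 with sitagliptin against DIO all lie below 0, on contrasts that chose the genes, and the points for Actb with sitagliptin against DIO and for Hspb7 in DIO or DIO+sitagliptin against vehicle fall on both sides of 0.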

How the data were processed

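Total RNA of 9 aortas was labelled with Cy3 and hybridised to 1 array each, per the labels' protocols. Each deposited value is the intensity of a spot after Agilent's Feature Extraction software (version 11.0.1.1 in the file headers) had removed background and a spatial trend. The headers record no normalization between arrays and name the mm9 build. No coordinates are given, since the annotation used here is of another build.

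From these, log2(intensity + 1) was averaged over the spots of a probe and quantile normalized over the 9 arrays. Probes entered the fit (49360 of 60823) if a share of 0.5 or more of their spots was well above background on 3 or more arrays. The model was limma 3.58.1 in R 4.3.3, with the 3 group means as its coefficients and a prior variance that depends on intensity. P-values were adjusted by Benjamini-Hochberg over the 49360 probes. On simulated data with independent noise, the procedure was checked only for returning planted differences on average. That simulation holds no shift shared by arrays, such as one of a scan, so it says nothing about calls under such a shift. Replicates are separate mice per the series' design text.

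The members, gene lists and alternatives were chosen with earlier results of these data known. Named besides the members are the 5 named genes most like and the 2 least like each by Pearson's r, and every kept gene of the actin, chaperone and muscle lists; 1 gene of these is not reported here. Names came from RefSeq for 46 probes and GENCODE for 3, and coding sequences from GENCODE M21 transcripts, aligned with Biopython 1.88. Replicate numbers come from the sample titles. For vehicle with DIO+sitagliptin, arrays of the same number deviated together from their group means (correlations 0.67, 0.65 and 0.76, limit 0.1). The number was therefore used as a block in a separate fit of those groups. The main fit has no block, so its values for that comparison leave the number out. The other pairs of groups did not pass the limit. Number 3 of both groups holds the arrays of day 20. With 3 arrays per group, a shared shift of number 3 also moves numbers 1 and 2 together. These correlations thus cannot separate matched mice from the scan. Alternatives covered normalization, pseudocount, spot summary, filter, arrays and covariates. The median pixel signal, values relative to GAPDH and relations within groups were added after seeing the data.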

Additional observations from a re-analysis of the deposited data

How the results depend on the processing

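In 21 settings per comparison, including 9 that leave out 1 array, limma called 0 probes at an adjusted p under 0.05. The number at an unadjusted p under 0.05 ran from 46 to 2350 for DIO against vehicle, from 16 to 1132 for DIO+sitagliptin against DIO and from 291 to 5203 for DIO+sitagliptin against vehicle. Leaving out single arrays moved it by over 1.5 times for 8, 3 and 7 of the 9 arrays. Over 23 alternatives, Actb stayed below vehicle in DIO (-3.67 to -0.91) and in DIO+sitagliptin (-3.74 to -1.26), and Hspb7 stayed lower with the drug than in DIO (-0.95 to -0.096). The genes were picked on these 3 contrasts, and the alternatives reuse the same arrays, so the steady sign is no support for them.

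The other differences changed sign. Actb in DIO+sitagliptin minus DIO was 0.15 without both arrays of day 20, 0.026 relative to GAPDH_5 and 0.49 relative to GAPDH_3, and ran from -0.92 to 0.98 when single arrays were left out. Hspb7 in DIO minus vehicle was 1.16 relative to GAPDH_5 and ran from -0.19 to 0.57 without single arrays. Hspb7 in DIO+sitagliptin minus vehicle was 0.086 without both arrays of day 20, 0.60 relative to GAPDH_5 and 0.082 relative to GAPDH_3, and ran from -0.69 to -0.090 without single arrays. The cause was not tested.

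With the replicate number as a block in the fit of all arrays, the differences kept their values, the SE of Actb fell from 1.30 to 0.89 and that of Hspb7 from 0.52 to 0.44, and 0 probes were called. In the 6 arrays of DIO+sitagliptin and vehicle, the block gave 3783 of 49360 probes at an unadjusted limma p under 0.05. The limma SE of Actb was 0.63, and no call changed. Number 3 there holds both arrays of day 20, so pairing cannot be told apart from the scan. Without normalization the median probe shifted by 0.26 between DIO and vehicle and by 0.19 between DIO+sitagliptin and vehicle, where Actb differed by -2.39 and -2.52. The mean pixel signal was not run.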
